A study of Homo sapiens with 9 samples.

Results

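Expression of 9 tight junction genes was followed in MCF10A cells that express a splice variant of HER2 (Delta-HER2), wild-type HER2 (WT-HER2) or neither. The genes were given as a list of names, drawn up with earlier results of these data known, and each was matched by symbol in the annotation of the array, by a transcript cluster (the set of probes summarised for 1 locus) that carries a single symbol. This gave values for 7 of the 9 genes, out of 18404 genes measured in this way: CLDN1, CLDN4, CLDN7, MARVELD2, TJP1, TJP3 and CGN. The transcript cluster of OCLN carries 2 symbols, OCLN and that of its transcribed pseudogene OCLNP1, so its values are given for the shared cluster and not for OCLN. F11R had no transcript cluster under its symbol in the annotation used and was not analysed here.

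MCF10A is an established, non-tumorigenic line of human mammary epithelium. RNA was taken from cells labelled Delta-HER2, from cells labelled WT-HER2 and from control cells, which one label calls parental and the design text describes as carrying an empty vector, with 3 arrays per group and 9 arrays in all. All cells were grown with 5% horse serum, 20 ng/ml epidermal growth factor, hydrocortisone, cholera toxin and insulin, and then spent 16 hours in medium whose named supplements are antibiotics. How the transgenes were delivered, whether a line was 1 clone and whether the arrays of a group came from separate cultures are not given in the sources used here, so p-values measure the spread between these arrays, which may be technical. With 1 line per transgene, an effect of the receptor cannot be told apart from an effect of making that line.

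Tight junctions seal the space between neighbouring epithelial cells near their apical side, and in the mammary gland they close the path between milk and tissue fluid during lactation. Claudins polymerise into the strands of the junction and set which ions pass. Occludin (OCLN) and tricellulin (MARVELD2) are membrane proteins of the MARVEL family, and tricellulin gathers where 3 cells meet. The zonula occludens proteins ZO-1 (TJP1) and ZO-3 (TJP3) hold the strands from the cytoplasm and link them to actin, and cingulin (CGN) binds them there. As the RNA is from bulk cultures, fewer cells that express a gene and less RNA of that gene per cell cannot be told apart.

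Levels are log2 values as deposited, and a difference of 1 is a 2-fold change. The ERBB2 level, which checks the labels, averaged 8.95 ± 0.02 in Delta-HER2, 7.98 in WT-HER2 and 6.99 ± 0.09 in control cells (SD, n = 3 each), and all WT-HER2 arrays held the same ERBB2 value as deposited. Array medians lay between 4.04 and 4.18. WT-HER2 replicate 3 and control replicate 1 stood apart from the other arrays of their groups on the principal component that held 16.6% of the variance, and the calls of genes named here that were lost without both are given as such. As a gauge of background, 95% of the values of 340 olfactory receptor genes lay under 3.22. Of the epithelial marker genes fixed for the check, 8 of 8 measured lay above that bound in every group, with a mean level per array of 9.02 to 9.12 in Delta-HER2, 9.02 to 9.06 in WT-HER2 and 9.12 to 9.13 in control cells. Of 7 fibroblast markers 5 lay above it in every group, with a mean level per array of 3.92 to 3.97 in Delta-HER2, 4.10 to 4.24 in WT-HER2 and 3.93 to 4.21 in control cells, while LUM and PDGFRA lay under it. Of 5 blood markers 2, 3 and 3 lay above it in Delta-HER2, WT-HER2 and control cells, with means of 4.51 to 4.60, 4.67 to 4.75 and 4.48 to 4.62, while PTPRC, CD3E and, in Delta-HER2 cells, ITGAM lay under it. The monocyte and macrophage marker CD14 averaged 7.96, 8.28 and 8.04 in these groups, and CD68 averaged 6.69, 6.87 and 6.11. Of the fibroblast markers, DCN averaged 7.07, 7.73 and 7.15 and COL1A1 averaged 5.47, 5.70 and 5.92 in the same groups. Of 6 endothelial markers PECAM1 alone lay above the background bound, in Delta-HER2 cells (3.90), with means over the list of 2.82 to 2.90, 2.70 to 2.94 and 2.73 to 2.85. The part of such cells or genes in the results was not tested.

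The promoters of CLDN1, CLDN7 and TJP3 are shown because these 3 of the 7 genes passed as lower in Delta-HER2 against control cells (limma adjusted p below 0.05). Each sequence holds the 250 bases before a start of the gene in RefSeq (GRCh38.p14), 5′ to 3′ on the strand of the gene, and the capitals mark CACCTG or its reverse complement CAGGTG, the E-box form that SNAI and ZEB repressors bind.
CLDN1 start 1, chr3:190322447-190322696, minus strand: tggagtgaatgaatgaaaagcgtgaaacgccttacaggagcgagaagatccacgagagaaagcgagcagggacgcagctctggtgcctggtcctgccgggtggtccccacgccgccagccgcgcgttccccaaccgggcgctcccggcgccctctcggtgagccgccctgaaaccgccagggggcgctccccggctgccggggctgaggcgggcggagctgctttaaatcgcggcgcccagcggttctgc
CLDN7 start 1, chr17:7263214-7263463, minus strand: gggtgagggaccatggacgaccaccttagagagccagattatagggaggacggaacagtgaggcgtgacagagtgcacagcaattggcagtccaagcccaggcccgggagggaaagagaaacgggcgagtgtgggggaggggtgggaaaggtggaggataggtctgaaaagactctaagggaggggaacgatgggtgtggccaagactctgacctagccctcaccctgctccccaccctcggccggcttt
CLDN7 start 2, chr17:7262479-7262728, minus strand: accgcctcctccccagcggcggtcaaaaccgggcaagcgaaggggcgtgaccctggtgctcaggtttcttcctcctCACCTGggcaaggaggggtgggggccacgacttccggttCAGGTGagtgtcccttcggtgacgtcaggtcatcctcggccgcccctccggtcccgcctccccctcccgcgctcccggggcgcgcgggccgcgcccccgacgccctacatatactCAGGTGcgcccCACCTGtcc
TJP3 start 1, chr19:3708134-3708383, plus strand: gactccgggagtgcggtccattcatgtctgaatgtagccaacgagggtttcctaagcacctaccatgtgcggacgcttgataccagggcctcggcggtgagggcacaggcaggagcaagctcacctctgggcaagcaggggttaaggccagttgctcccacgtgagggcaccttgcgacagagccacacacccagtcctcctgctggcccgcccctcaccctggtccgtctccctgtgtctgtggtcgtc
TJP3 start 2, chr19:3721487-3721736, plus strand: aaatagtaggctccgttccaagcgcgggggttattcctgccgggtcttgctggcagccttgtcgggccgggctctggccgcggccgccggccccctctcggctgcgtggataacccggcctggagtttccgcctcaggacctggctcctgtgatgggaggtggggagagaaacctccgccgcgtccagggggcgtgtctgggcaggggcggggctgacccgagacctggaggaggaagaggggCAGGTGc

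CACCTG stood in 4 places at start 2 of CLDN7, whose first bases lay 174, 135, 20 and 9 bases before the start, and in 1 place at start 2 of TJP3, 7 bases before it. CLDN1 and the other starts of CLDN7 and TJP3 held none of these letters in this window. Both strands were searched over 35116 promoter windows of the same length, of which 17.5% held CACCTG at least once and 0.122% held it in 4 or more places. Of the 14 windows of the 8 tight junction genes with an entry, 5 held it: those of CLDN7 and TJP3 named above, both of OCLN and 1 of 4 of TJP1. AACCNGTT, letters that grainyhead factors bind, stood in 1 of the 14 windows, that of CGN, against 1.49% of all windows, and GGGCGG, the GC box that Sp1 binds, in 11 of 14, against 42.6%. No CACCTG overlapped another of these motifs. The matches describe the letters only; which starts these cells use was not measured.

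In Delta-HER2 cells, 3 of the 7 tight junction genes fell relative to control cells, namely the claudin genes CLDN7 and CLDN1 and the ZO-3 gene TJP3, to 37.6%, 57.8% and 44.5% of the control level. None rose. All 7 differences were below 0, with a median of −0.71, against −0.01 over all 18404 genes tested. In the same comparison 25.4% of all genes passed limma at adjusted p below 0.05, 11.7% as lower and 13.6% as higher, so a call as such is common in these cells. The arrays of the groups did not overlap for 5 of the 7 genes, against 37.0% of all genes.

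CLDN7 (transcript cluster 8012126) encodes a claudin of many epithelia that also binds EPCAM. Its level was 7.16, 7.06 and 7.05 on the Delta-HER2 arrays, 8.08, 8.06 and 8.05 on the WT-HER2 arrays and 8.47, 8.45 and 8.58 on the control arrays. The 3 groups did not overlap: Delta-HER2 was lowest, WT-HER2 lay between and control was highest. CLDN7 fell by 1.41 log2 in Delta-HER2 cells against control (SE 0.07, limma adjusted p = 7.42e-07), and its difference stood at position 121 of 18404 when genes were ordered from the most negative. Its level in Delta-HER2 cells was also below that in WT-HER2 cells (difference −0.97, SE 0.07, limma adjusted p = 7.94e-06).

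CLDN1 (transcript cluster 8092726) encodes claudin-1, a barrier-forming claudin of skin and other epithelia. Its level was 9.37, 9.17 and 9.22 on the Delta-HER2 arrays, 10.11, 10.12 and 9.95 on the WT-HER2 arrays and 9.94, 10.13 and 10.05 on the control arrays. All Delta-HER2 arrays lay below all other arrays, and the WT-HER2 and control arrays overlapped. CLDN1 fell by 0.79 log2 in Delta-HER2 cells against control (SE 0.09, limma adjusted p = 1.03e-04). Against WT-HER2 cells the difference was −0.81 (SE 0.09, limma adjusted p = 1.10e-04).

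TJP3 (transcript cluster 8024687) encodes ZO-3, an epithelial scaffold of the junction plaque. Its level was 5.71, 5.48 and 5.32 on the Delta-HER2 arrays, 6.85, 7.11 and 6.83 on the WT-HER2 arrays and 6.79, 6.61 and 6.61 on the control arrays. All Delta-HER2 arrays lay below all other arrays, and the WT-HER2 arrays lay slightly above the control arrays. TJP3 fell by 1.17 log2 in Delta-HER2 cells against control (SE 0.12, limma adjusted p = 6.48e-05) and was lower than in WT-HER2 cells (difference −1.43, SE 0.12, limma adjusted p = 2.43e-05). Control replicates 2 and 3 held the same TJP3 value as deposited, so the spread of that group may be too small.

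The calls of CLDN7, CLDN1 and TJP3 in Delta-HER2 cells, against control and against WT-HER2, held in 20 of 20 alternatives each. With WT-HER2 replicate 3 and control replicate 1 both left out, the differences from control were −1.43 for CLDN7, −0.84 for CLDN1 and −1.11 for TJP3.

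**Figure D1:**
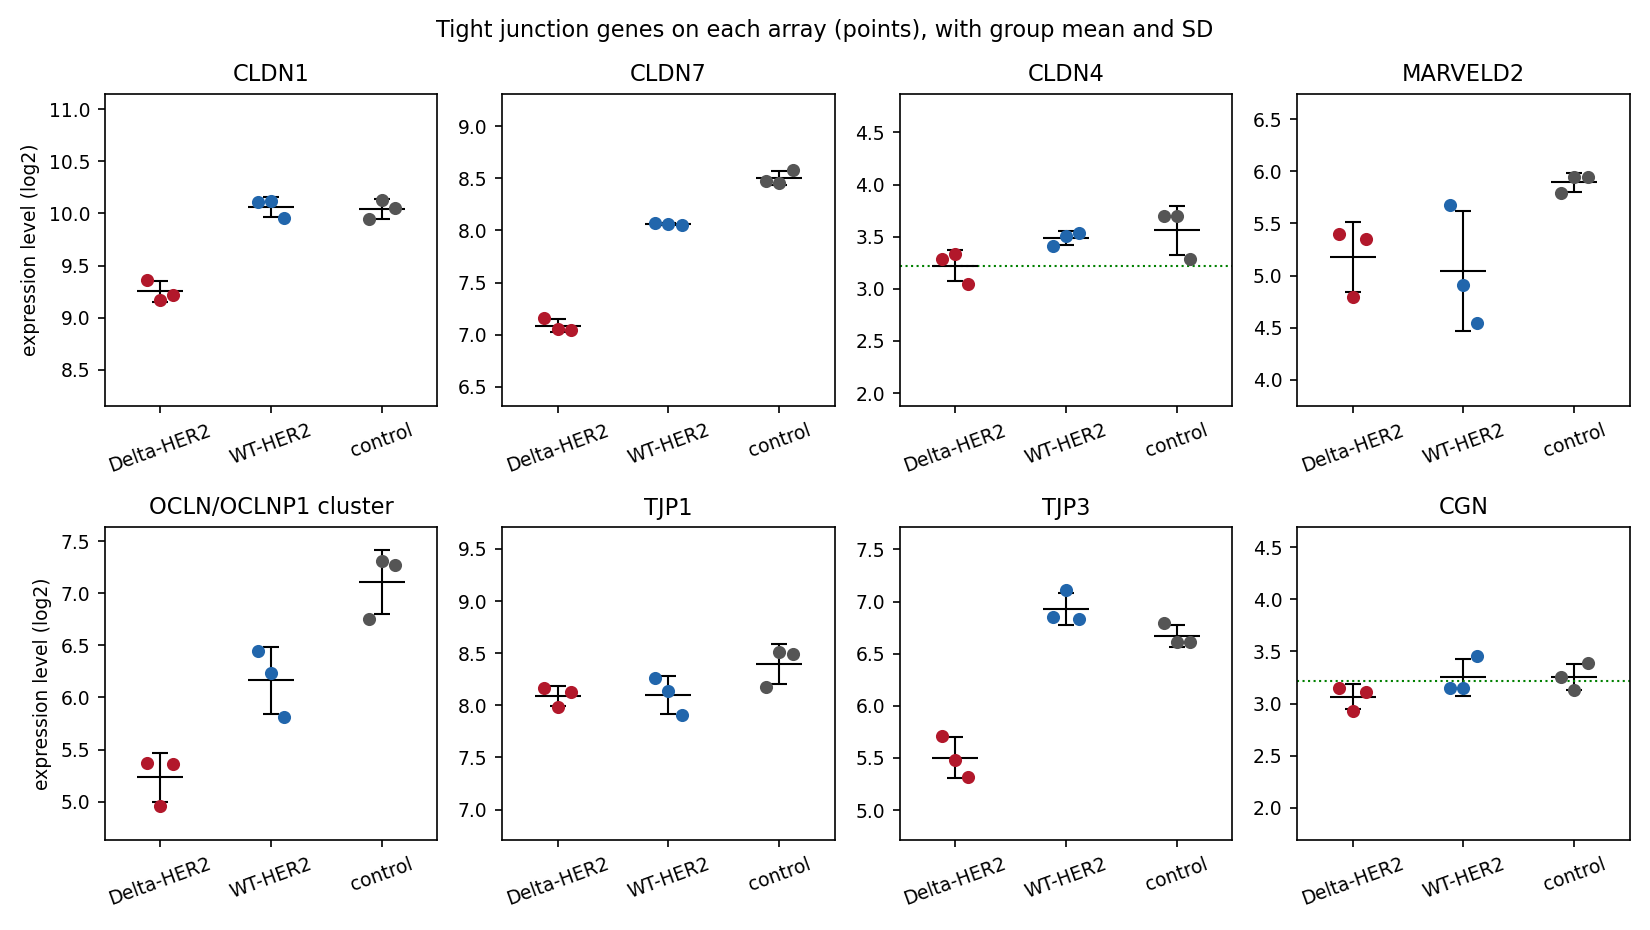
Expression level (log2, y axis) of the 7 tight junction genes and the cluster shared by OCLN and OCLNP1 in Delta-HER2, WT-HER2 and control cells. Points are arrays (replicates 1 to 3 from left to right), bars are the mean and SD of 3 arrays, every panel spans the same range of log2 units, and the dotted line is the background bound of 3.22. Delta-HER2 arrays lie below all control arrays for CLDN1, CLDN7, TJP1, TJP3, MARVELD2 and the shared cluster, while CLDN4 and CGN lie near the bound.

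Of the 4 genes that did not pass in Delta-HER2 cells, TJP1 and MARVELD2 lay clearly above background. TJP1 (transcript cluster 7986977), which encodes ZO-1, the scaffold on which strands assemble, had levels of 8.17, 7.98 and 8.12 on the Delta-HER2 arrays, 8.26, 8.14 and 7.90 on the WT-HER2 arrays and 8.18, 8.51 and 8.49 on the control arrays. The Delta-HER2 arrays lay below the control arrays by a narrow margin, and the highest Delta-HER2 array and the lowest control array, replicate 1, nearly met. The difference from control was −0.30 in Delta-HER2 cells (95% confidence interval −0.57 to −0.03, limma adjusted p = 0.104). TJP1 passed without control replicate 1, an array that stood apart (difference −0.41, limma adjusted p = 0.0276), and with both arrays that stood apart left out (limma adjusted p = 0.00559). Between Delta-HER2 and WT-HER2 cells the TJP1 difference was −0.01, with an interval of −0.28 to 0.26.

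MARVELD2 (transcript cluster 8177498), the tricellulin gene, had levels of 5.40, 4.80 and 5.35 on the Delta-HER2 arrays, 5.68, 4.91 and 4.55 on the WT-HER2 arrays and 5.79, 5.94 and 5.95 on the control arrays. Both HER2 lines lay below all control arrays, and both spread widely (SD 0.33 in Delta-HER2, 0.58 in WT-HER2 and 0.09 in control cells). The differences from control were −0.71 in Delta-HER2 cells (SE 0.26, limma adjusted p = 0.0805) and −0.85 in WT-HER2 cells (SE 0.26, limma adjusted p = 0.210). The Delta-HER2 difference passed without WT-HER2 replicate 1 (limma adjusted p = 0.0151) or without that line's replicate 3 (0.0367), arrays that enter it through the shared spread alone, and the WT-HER2 difference without WT-HER2 replicate 1 (−1.17, limma adjusted p = 0.0377). The lowest array was WT-HER2 replicate 3, and with it and control replicate 1 left out the differences from control were −0.76 in Delta-HER2 and −0.65 in WT-HER2 cells.

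The transcript cluster (8105908) shared by OCLN, the occludin gene, and OCLNP1 had levels of 5.37, 4.96 and 5.36 on the Delta-HER2 arrays, 6.45, 6.24 and 5.82 on the WT-HER2 arrays and 6.76, 7.31 and 7.27 on the control arrays. The 3 groups did not overlap, and their order was that of CLDN7. In a fit over all 32321 transcript clusters, where 16.5% passed for this comparison, the cluster fell by 1.88 log2 in Delta-HER2 cells against control (SE 0.21, limma adjusted p = 4.10e-04), to 27.2% of the control level. Between Delta-HER2 and WT-HER2 cells the difference was −0.93 (SE 0.21, limma adjusted p = 0.0184), where 14.6% of clusters passed. This last call was lost without Delta-HER2 replicate 2 (limma adjusted p = 0.0649) and without replicate 1 (0.0624) or replicate 2 (0.0627) of WT-HER2. How much of the signal came from the pseudogene was not measured.

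CLDN4 and CGN lay near the background bound of 3.22, so the size of a difference is uncertain there. CLDN4 (transcript cluster 8133360), a claudin gene of the luminal mammary epithelium, had levels of 3.29, 3.33 and 3.05 on the Delta-HER2 arrays, 3.41, 3.51 and 3.53 on the WT-HER2 arrays and 3.70, 3.69 and 3.29 on the control arrays. Control replicate 3 lay within the range of the Delta-HER2 arrays, and the difference in Delta-HER2 cells was −0.34 (95% confidence interval −0.61 to −0.06, limma adjusted p = 0.0785). Without control replicate 3 it passed (−0.47, limma adjusted p = 0.0109). CGN (transcript cluster 7905406), the cingulin gene, had levels of 3.15, 2.93 and 3.11 on the Delta-HER2 arrays, 3.15, 3.15 and 3.46 on the WT-HER2 arrays and 3.25, 3.13 and 3.39 on the control arrays. The CGN groups overlapped, and the Delta-HER2 difference from control was −0.19 (95% confidence interval −0.44 to 0.06, limma adjusted p = 0.284).

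In WT-HER2 cells, CLDN7 was the 1 gene of the 7 that passed against control cells. It fell by 0.44 log2 (SE 0.07, limma adjusted p = 0.0122), to 73.9% of the control level. Over all genes 1.68% passed in this comparison, 0.902% as lower and 0.777% as higher, and the arrays did not overlap for 14.0%. The CLDN7 call was lost without control replicate 3 (limma adjusted p = 0.0606) and without replicate 1 (0.0506) or replicate 2 (0.0543) of WT-HER2, while the difference stayed between −0.46 and −0.40 whichever array was left out. With WT-HER2 replicate 3 and control replicate 1 both left out, the difference was −0.45 (limma adjusted p = 0.0407).

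The other 6 genes did not pass in WT-HER2 cells. The median over the 7 differences was −0.08, against 0.01 over all genes. CLDN1 differed by 0.02, with a 95% confidence interval of −0.17 to 0.21, and the interval for CGN was −0.25 to 0.25. TJP3 had a difference of 0.26, with an interval of −0.01 to 0.52 (limma adjusted p = 0.459), and its WT-HER2 and control arrays did not overlap. The arrays of 3 of the 7 genes did not overlap in this comparison, those of CLDN7, TJP3 and MARVELD2. TJP1 differed by −0.29 (limma adjusted p = 0.398), CLDN4 by −0.08 and the shared OCLN cluster by −0.94 (SE 0.21, limma adjusted p = 0.133, where 0.696% of all clusters passed).

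The comparison of Delta-HER2 with WT-HER2 cells tests directly whether the lines differ. In it CLDN7, CLDN1 and TJP3 were lower in Delta-HER2 cells, 3 of 7 genes, and none was higher. Of all genes 22.8% passed, 9.35% as lower and 13.4% as higher, and the arrays did not overlap for 34.7% of genes and for 4 of the 7 (CLDN4 beside the called genes). The median difference of the 7 genes was −0.26, against −0.04 over all genes. For CLDN4, TJP1, CGN and MARVELD2 the intervals held 0, and that of MARVELD2 ran from −0.45 to 0.73. The ERBB2 level was also 0.98 log2 higher in Delta-HER2 than in WT-HER2 cells, and its part in these differences was not tested.

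**Figure D2:**
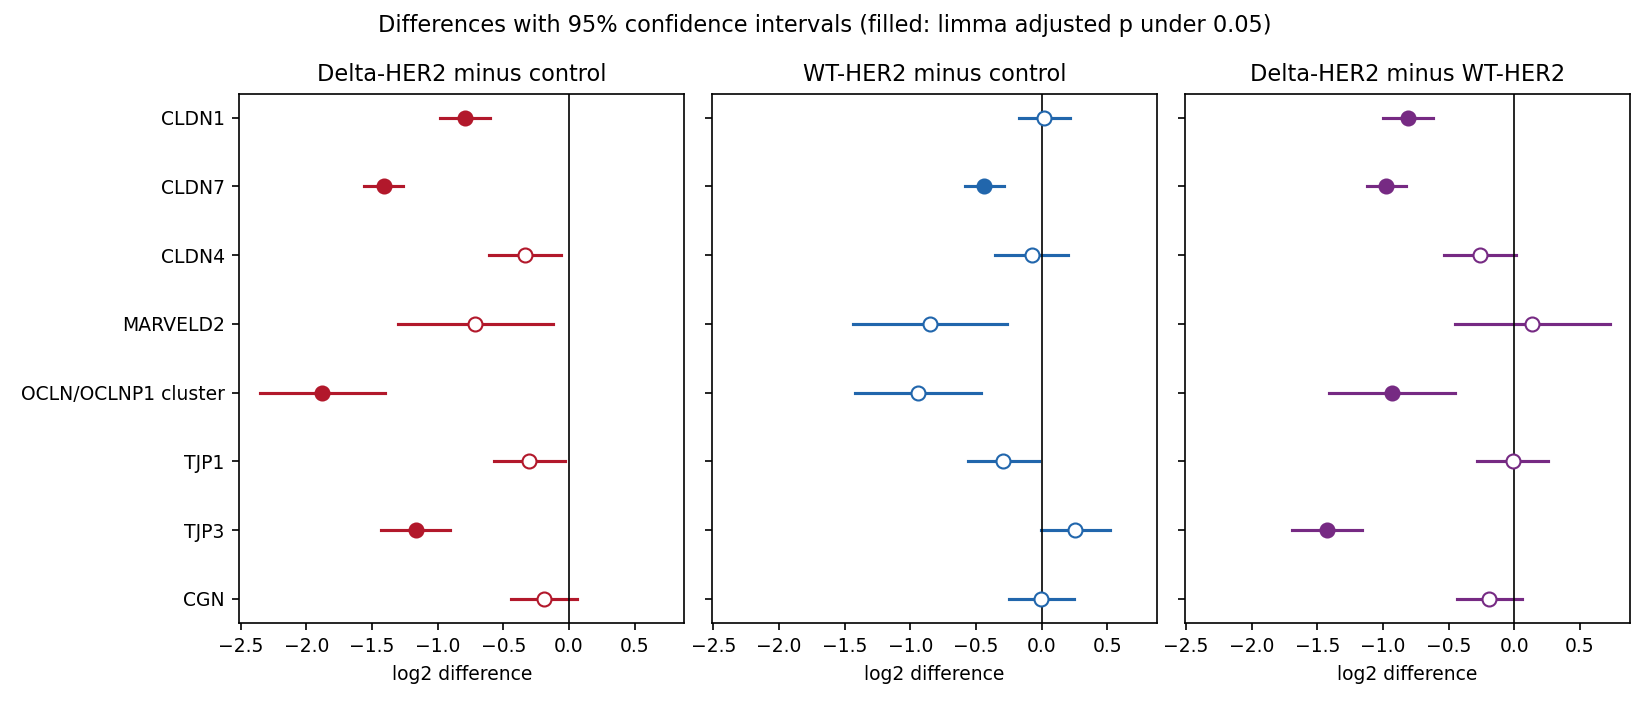
Log2 differences (x axis) of the tight junction genes and the shared OCLN and OCLNP1 cluster for Delta-HER2 minus control, WT-HER2 minus control and Delta-HER2 minus WT-HER2. Points are the fitted differences, lines their 95% confidence intervals, and filled points passed limma at adjusted p below 0.05. CLDN1 and TJP3 are filled in the Delta-HER2 panels and open in the WT-HER2 panel, and CLDN7 is filled in all 3.

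Of 19 other claudin genes measured, 1 fell and 1 rose in Delta-HER2 against control cells, where 11.7% of all genes fell and 13.6% rose, 0 passed in WT-HER2 against control cells, and 0 passed between the HER2 lines (median differences 0.00, 0.02 and −0.06). The claudin that fell was CLDN16, known from the kidney, with a level of 3.74 ± 0.06 in Delta-HER2 and 4.16 ± 0.16 in control cells (SD; limma adjusted p = 0.0140). The one that rose was CLDN10, whose levels of 2.83 ± 0.19 and 2.49 ± 0.12 in Delta-HER2 and control cells both lay under the background bound (SD; limma adjusted p = 0.0417). The CLDN16 call held in 17 of 20 alternatives and the CLDN10 call in 9 of 19; CLDN10 was not called without both arrays that stood apart (0.30, limma adjusted p = 0.110). Among 10 other membrane proteins of the junction, LSR, which recruits tricellulin to tricellular contacts, fell by 0.32 log2 in Delta-HER2 cells (SE 0.09, limma adjusted p = 0.0230), and none passed in the other comparisons. The LSR call held in 15 of 20 alternatives and was lost without both arrays that stood apart (−0.29, limma adjusted p = 0.0540). EPCAM, the partner of claudin-7, averaged 8.15 ± 0.32 in Delta-HER2, 7.97 ± 0.31 in WT-HER2 and 7.90 ± 0.13 in control cells (SD), and did not pass (difference 0.25 in Delta-HER2 against control cells, limma adjusted p = 0.421). However, 2 transcript clusters carried the EPCAM symbol, and these values are those of 8098439, which had the higher mean. The values of the other cluster are not given here.

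Of 12 other plaque and scaffold proteins, 2 fell in Delta-HER2 against control cells, 0 passed in WT-HER2 cells and 1 was lower in Delta-HER2 than in WT-HER2 cells. These shares lie near those of all genes, of which 11.7% fell in Delta-HER2 against control cells and 9.35% were lower than in WT-HER2 cells. TJAP1, which encodes a tight junction associated protein, fell by 0.51 log2 in Delta-HER2 cells (SE 0.07, limma adjusted p = 4.68e-04) and was lower than in WT-HER2 cells (difference −0.48, limma adjusted p = 7.47e-04). AMOTL1, an angiomotin family gene, fell by 0.37 log2 against control (SE 0.09, limma adjusted p = 0.0169), a call that held in 15 of 20 alternatives.

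The products of polarity genes place the junction at the apical border. In Delta-HER2 against control cells 6 of 14 such genes fell and 0 rose, with a median difference of −0.34, where 11.7% of all genes fell and 13.6% rose. PARD3, the scaffold of the PAR complex, had a level of 7.30 ± 0.10 in Delta-HER2, 8.25 ± 0.08 in WT-HER2 and 8.49 ± 0.17 in control cells (SD). The PARD3 difference between Delta-HER2 and control cells was −1.18 (SE 0.10, limma adjusted p = 2.07e-05). LLGL2, a lethal giant larvae homologue of the basolateral complex, averaged 5.44 ± 0.11 in Delta-HER2 and 6.57 ± 0.11 in control cells (SD), with WT-HER2 between them as for CLDN7. It fell by 1.13 log2 with Delta-HER2 (SE 0.08, limma adjusted p = 9.81e-06) and by 0.57 log2 with WT-HER2 (SE 0.08, limma adjusted p = 0.0109), where it was the 1 polarity gene that passed and 0.902% of all genes fell. The WT-HER2 call of LLGL2 held in 16 of 20 alternatives and was lost without both arrays that stood apart (−0.52, limma adjusted p = 0.0593). PRKCZ, the gene of atypical protein kinase C zeta, fell by 0.78 log2 with Delta-HER2 (SE 0.10, limma adjusted p = 3.18e-04), PATJ, a scaffold gene of the Crumbs complex, by 0.49 (SE 0.08, limma adjusted p = 0.00116) and PARD6G, of the PAR6 family, by 0.62 (SE 0.12, limma adjusted p = 0.00447). The call of the sixth, DLG1, held in 9 of 20 alternatives. Between the HER2 lines 4 of the 14 were lower in Delta-HER2 cells, PARD3, LLGL2, PRKCZ and PATJ, where 9.35% of all genes were lower, and the PATJ call held in 16 of 20 alternatives. CRB3, the Crumbs gene of epithelia, did not pass in any comparison (5.46 ± 0.11, 5.73 ± 0.19 and 5.68 ± 0.24 in Delta-HER2, WT-HER2 and control cells, SD).

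Among 13 regulators of junction genes, 5 fell and 0 rose in Delta-HER2 against control cells, where 11.7% of all genes fell and 13.6% rose. ELF3, an ETS factor gene of differentiated epithelium, fell by 2.40 log2 to 4.80 ± 0.15 in Delta-HER2 cells, against 7.20 ± 0.11 in control cells (SD; SE 0.09, limma adjusted p = 2.65e-07), and was at 6.88 ± 0.01 in WT-HER2 cells. The grainyhead gene GRHL3 fell in both lines, by 0.61 log2 with Delta-HER2 (SE 0.09, limma adjusted p = 8.48e-04) and by 0.65 with WT-HER2 (SE 0.09, limma adjusted p = 0.00874). KLF5, a zinc finger factor gene, fell by 0.29 log2 with Delta-HER2 (limma adjusted p = 0.0327), a call that held in 10 of 20 alternatives and was lost without both arrays that stood apart (−0.27, limma adjusted p = 0.0625). The mesenchymal factor genes ZEB2 and TWIST1 were among those that fell with Delta-HER2, by 0.49 (limma adjusted p = 0.00461) and 0.42 (limma adjusted p = 0.00474). TWIST1 was also lower in Delta-HER2 than in WT-HER2 cells (difference −0.85, limma adjusted p = 7.86e-05). In WT-HER2 against control cells the TWIST1 difference was 0.43 (limma adjusted p = 0.0413), but this call held in 6 of 20 alternatives, with an adjusted p of 0.0195 to 0.152 over them. It was lost without control replicate 1 (0.43, limma adjusted p = 0.0822), without WT-HER2 replicate 3 (0.36, 0.0930) and without both (0.37, 0.110). Of the SNAI and ZEB genes measured other than ZEB2, none passed in Delta-HER2 against control cells. The differences from control were 0.27 for SNAI1 (limma adjusted p = 0.0862), which lay under the background bound, −0.11 for SNAI2 (0.526) and 0.27 for ZEB1 (0.0742). Between the HER2 lines 4 of the 13 were lower in Delta-HER2 cells, ELF3, KLF5, ZEB2 and TWIST1, where 9.35% of all genes were lower. The 1 that was higher, where 13.4% of all genes were, was ESRP2, a splicing factor gene of epithelium (0.38, limma adjusted p = 0.0151). The ESRP2 call held in 18 of 20 alternatives. In WT-HER2 cells the calls of LLGL2, GRHL3 and TWIST1 made up all 3 of the 68 genes in these lists that passed against control. Over all genes 1.68% passed in this comparison, and 0 of the 68 passed without control replicate 3. In Delta-HER2 cells 16 of the 68 passed against control in either direction, a share near the 25.4% of all genes. All of these but CLDN10 were lower, where 11.7% of all genes were lower and 13.6% higher. Without control replicate 3, 10 of the 68 passed, where 3805 to 5097 of all 18404 genes passed with 1 array left out.

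**Figure D3:**
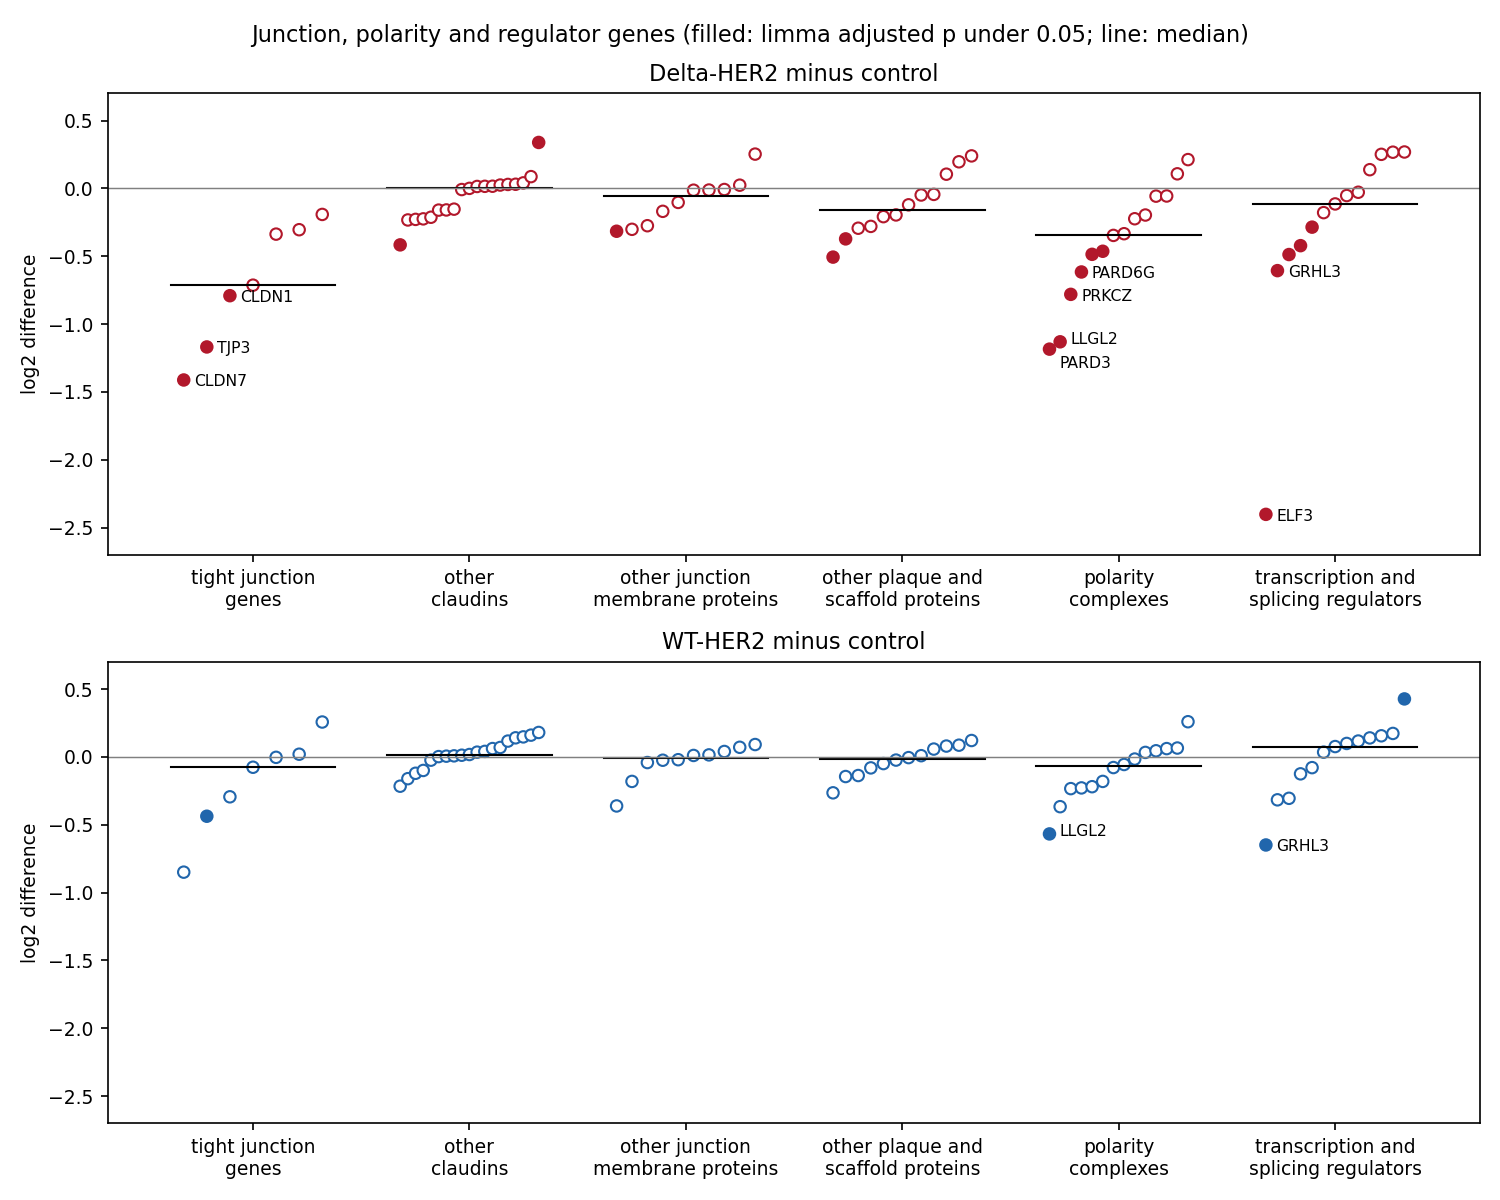
Log2 differences (y axis) for Delta-HER2 minus control and WT-HER2 minus control, by list (x axis). Each point is a gene, ordered within its list, filled where limma adjusted p was below 0.05, and the black line is the median of the list. In the upper panel the filled points of the tight junction and polarity lists lie below 0, with medians of −0.71 and −0.34, and ELF3 lies at −2.40.

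The adherens junction gene CDH1, used as an epithelial marker, averaged 8.06 ± 0.03 in Delta-HER2, 8.76 ± 0.03 in WT-HER2 and 9.09 ± 0.09 in control cells (SD), again in the order seen for CLDN7. Of the other epithelial markers measured, KRT5 averaged 11.67, 11.77 and 11.82 in Delta-HER2, WT-HER2 and control cells, KRT18 averaged 10.50, 10.32 and 9.98, and KRT8 averaged 9.88, 9.95 and 9.90. The KRT18 symbol stood on 2 transcript clusters, and the values are those of 8154725, which had the higher mean. Whether this cluster reads KRT18 itself or a related sequence elsewhere in the genome was not checked. Its order of groups may therefore not be that of KRT18. KRT14, at 10.17, 9.44 and 10.12, and SFN, at 10.40, 10.15 and 10.45, were lowest in WT-HER2 cells, and KRT19 averaged 3.66, 3.99 and 3.72. The markers therefore did not share 1 order of groups. These levels are given as a description of the cells, with no test.

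For the 3 tight junction genes with the smallest p in the limma F test over the 3 groups, which 24.4% of all genes passed, the genes with the most similar profile over the 9 arrays were found by the root mean square difference of values centred on each gene's own mean. Nearest to CLDN7 were RIPK4 (0.05 log2), PPFIBP2 (0.06) and ID3 (0.07), where a gene of median likeness lay 0.60 away. Nearest to CLDN1 were F2R (0.05), IFI30 (0.05) and TPD52L1 (0.06), with 0.40 for a gene of median likeness. Nearest to TJP3 were CLU (0.13), ABHD4 (0.15) and TMOD1 (0.15), with 0.63. The CLDN7 profile stepped down from control through WT-HER2 to Delta-HER2, and the profiles of CLDN1 and TJP3 were low in Delta-HER2 cells alone. These genes were picked as the closest of all genes and carry no test.

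**Figure D4:**
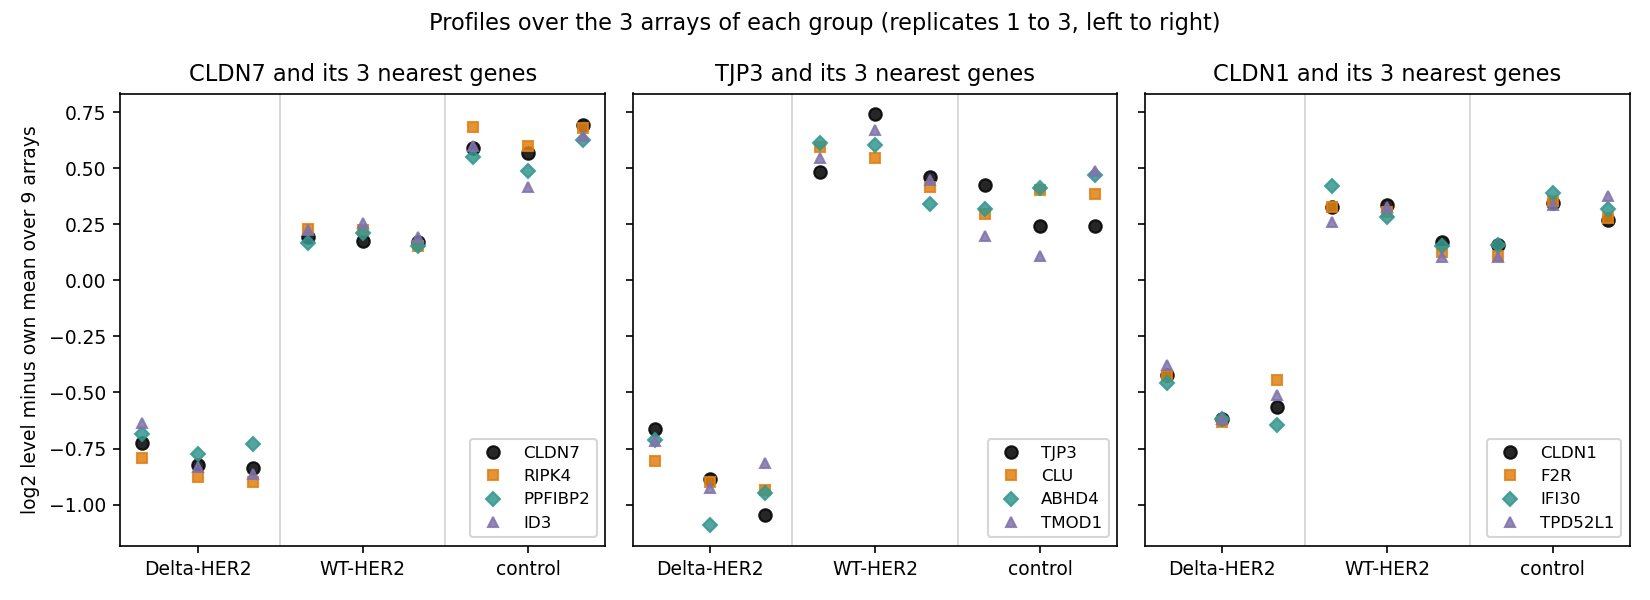
Log2 level minus the gene's own mean over 9 arrays (y axis) for CLDN7, TJP3 and CLDN1 (black circles) and the 3 genes with the most similar profile, on the 3 arrays of each group (x axis). CLDN7 and its neighbours form 3 levels, whereas CLDN1, TJP3 and their neighbours are low on the Delta-HER2 arrays alone. The WT-HER2 and control arrays overlap for CLDN1 and its neighbours, while for TJP3 the WT-HER2 arrays lie slightly above the control arrays.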

How the data were processed

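RNA of 9 MCF10A samples was measured on Affymetrix whole-transcript arrays. The authors deposited log2 values, for which the submitters' processing notes name RMA, affy and R 2.14; the genome build is not given in the sources used here. RMA normalizes between arrays, so a change shared by most genes would not be seen. The values were used as deposited. Of 32321 transcript clusters, 19158 carried 1 gene symbol, and the cluster with the highest mean represented a gene, which left 18404 genes. EPCAM, KRT18, PECAM1 and ZEB2 each had 2 such clusters, and for each only the values of the cluster with the higher mean are given. Low values were kept, and 7 of 7 tight junction genes measured would have passed a filter at the background bound.

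The model was fitted in limma 3.58.1 (R 4.3.3) to all 9 arrays, with a mean for each group, two-sided tests and Benjamini-Hochberg adjustment over 18404 genes; a gene passed at adjusted p below 0.05. The cluster shared by OCLN and OCLNP1 was tested in a fit over all clusters. The number of arrays, 3 per group, limits the precision, and differences had a median SE of 0.10 log2. The members and lists were chosen with earlier results of these data known. All members are named, with ERBB2, the genes of each wider list that passed (the 5 with the smallest p where more did) and the 3 nearest profiles; DLG1, EPCAM, CRB3, SNAI1, SNAI2, ZEB1 and the marker genes named were picked for mention afterwards. Promoters are from RefSeq. Alternatives were other normalizations, a filter, other variance estimates, array weights, pairs of groups, a replicate block and arrays left out; leaving out 2 arrays together, and the alternatives of the shared cluster, were added after seeing the data.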

Additional observations from a re-analysis of the deposited data

How the results depend on the processing

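The 3 arrays per group and a median SE of 0.10 log2 limit what can be seen, and CLDN4 and CGN are limited by background. For WT-HER2 against control, 309 genes passed, and 736 with array weights, 134 with the 2 groups alone, 139 with the replicate block and 126 to 279 with 1 array left out. Of the tight junction genes, the 1 that passed there (CLDN7) became 0 with the 2 groups alone (adjusted p = 0.0544), 0 with the replicate block (0.0712) and 0 to 1 with 1 array left out. The 3 genes of the wider lists became 5 with array weights, 1 with the replicate block, 1 without both arrays that stood apart (an alternative added after seeing the data) and 0 to 2 with 1 array left out. For Delta-HER2 against control, 4669 genes passed, and 3805 to 5097 with 1 array left out. The 3 tight junction genes were 3 to 4 with 1 array left out, and the 16 genes of the wider lists were 10 to 19. With array weights the 3 tight junction genes became 6, as CLDN4 (adjusted p = 0.0389), MARVELD2 (0.0321) and TJP1 (0.00614) passed as well. The share of all genes that passed with array weights is not given here, so the 6 cannot be set against it. TJP1 passed there with quantile normalization too (adjusted p = 0.0157), and MARVELD2 with the 2 groups alone (0.0180). Over all alternatives, adjusted p ran from 0.00421 to 0.0712 for CLDN7 in WT-HER2 against control, and in Delta-HER2 against control from 0.0109 to 0.257 for CLDN4, 0.0151 to 0.264 for MARVELD2 and 0.00559 to 0.293 for TJP1. The causes were not tested. Differences near 0 changed sign without passing: CLDN1 in WT-HER2 against control (−0.0303 to 0.0742 with 1 array left out), CGN there (−0.11 to 0.0624), TJP1 in Delta-HER2 against WT-HER2 (−0.11 to 0.0693, and 0.0449 with median centring) and MARVELD2 there (−0.11 to 0.45, and −0.11 without both arrays that stood apart). The shared cluster passed in WT-HER2 against control with array weights (adjusted p = 0.0297), and its Delta-HER2 against WT-HER2 call was lost with the replicate block (adjusted p = 0.0616). The replicate numbers were not taken as pairs, since 1 of 9 arrays correlated best with an array of its own number. The block changed no other call of a tight junction gene.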
